A study of Mus musculus with 6 samples.

Results

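The clustered protocadherins are adhesion genes that sit head to tail in 3 neighbouring clusters, called alpha, beta and gamma, on mouse chromosome 18. Members were chosen by symbol, as every gene of the count table whose mouse symbol begins with Pcdha, Pcdhb or Pcdhg. This gave 58 of the 33084 genes in the table, 14 in the alpha cluster, 22 in the beta cluster and 22 in the gamma cluster. The symbol rule uses no measured value. The family was taken up because an earlier look at these same libraries had found it lower as a group in mutants, so every difference between the genotypes is a description here and supports nothing by itself.

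Bulk RNA-seq covered embryonic mouse forebrain (day 15.5), with 3 wild-type libraries (controls) and 3 libraries of the genotype Dyrk1a<DlxCre/+> (mutants). In the mutants the kinase gene Dyrk1a is inactivated conditionally in the Dlx5 domain, a source of forebrain GABAergic neurons, while the libraries hold RNA of the whole dissected forebrain. The titles write the same genotype as Dyrk1a<Dlx/+>. Its /+ denotes a remaining wild-type allele, so the mutants are read here as heterozygous. The labels do not say whether controls carried the Cre driver or the conditional allele, or whether the embryos shared litters, so p-values measure only the spread between these samples. The comparison asks how that inactivation changes the embryonic forebrain transcriptome.

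Each clustered protocadherin is a cell surface protein of the cadherin superfamily. Its extracellular part binds the same isoform on a facing membrane, and the set of isoforms that a neuron makes lets its own branches recognise and avoid each other. Each alpha and gamma gene has its own promoter and a large variable exon, spliced to constant exons shared by the whole cluster, while beta genes are single-exon genes without shared exons. Most promoters are chosen at random in each neuron. The last genes of the alpha and gamma clusters, called C type, are used more widely. The DNA-binding protein CTCF and the cohesin ring bring a chosen promoter to a distant enhancer, and DNA methylation silences promoters that are not used.

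The alpha cluster spans 36930184 to 37187661 on chromosome 18 of the GRCm38 build, the beta cluster 37264938 to 37524479 and the gamma cluster 37661793 to 37841873, all on the forward strand. A pair of table rows carries the symbol Pcdha11 in the annotation. RefSeq places the gene Pcdha10 at the start of the first of them, ENSMUSG00000007440, which is called Pcdha10 here, and Pcdha11 at ENSMUSG00000102206. Shared exons matter for counting, since a read in an exon of several genes cannot be given to 1 of them. Exon bases that belong to no other gene on the same strand were therefore counted for each member. All 14 alpha and all 22 gamma members had fewer such bases than exon bases in total, and 2 of the 22 beta members did, Pcdhb21 and Pcdhb22, which overlap each other. Counts of these 38 members are uncertain to the extent that the counting shared or dropped reads of common exons.

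Both ends of this range are visible in the counts. Pcdha4, most of whose exon bases are shared with other annotated genes, kept 494 of its 5768 exon bases as its own. Pcdhgb8, annotated as a polymorphic pseudogene, shares the constant exons of its cluster and held only 25 to 46 counts per library. That limits the shared reads that could have been added equally to every gamma member. Pcdhga10 has no exon base free of other genes once the opposite strand is included, yet it held 35.2 to 42.4 CPM. CPM is counts scaled to library size (cpm in edgeR), with library sizes adjusted by TMM, a method that takes most genes as unchanged. A count that ignored strand and left out ambiguous reads would have left Pcdhga10 near 0 under this annotation.

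The clusters differed in level, and the gamma cluster held most of the reads. The 58 genes together took 30304 to 45106 counts per library, between 0.111% and 0.142% of all counts. The gamma cluster held 62.4% to 70.8% of these reads, the alpha cluster 15.2% to 18.8% and the beta cluster 14.0% to 18.8%. Levels between genes were compared as CPM per kb of the exon bases that belong to the member alone. On that scale the median member stood at 12.4 in the gamma cluster, 6.07 in the alpha cluster and 1.58 in the beta cluster. The order of the clusters was the same in all 6 libraries. Their medians ranged from 11.7 to 13.3 (gamma), 4.86 to 7.69 (alpha) and 1.15 to 1.83 (beta). Measured over all exon bases of each gene, the medians were 7.19, 2.77 and 1.58, in the same order.

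**Figure D1:**
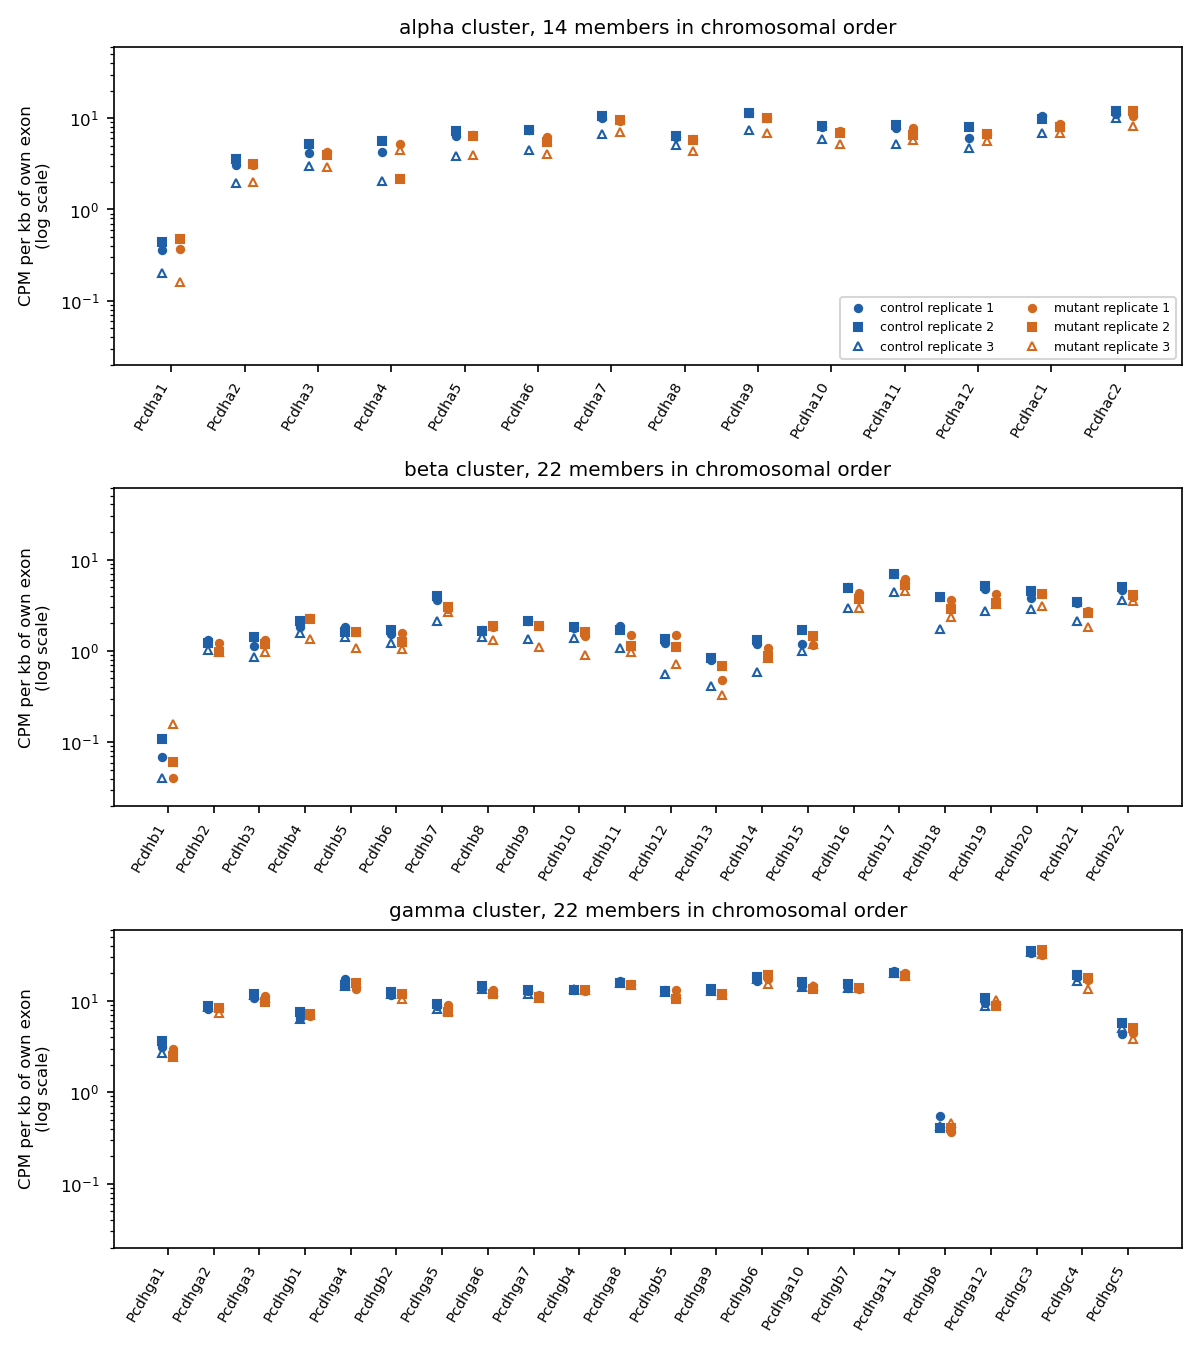
Level of each clustered protocadherin in chromosomal order (x axis), as CPM per kb of exon bases that belong to the gene alone (y axis, log scale). Points are single libraries, blue for controls and orange for mutants, with open triangles for replicate 3. Pcdhgc3 stands highest at a mean of 33.9, while Pcdha1, Pcdhb1 and Pcdhgb8 lie below 0.5, and the open triangles lie low in the alpha and beta clusters.

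Within each cluster the first gene was the lowest or among the lowest. On the scale of CPM per kb, Pcdha1 stood at 0.33 ± 0.13 and Pcdhb1 at 0.08 ± 0.05 (mean and SD over the 6 libraries). Levels in the alpha cluster climbed along the chromosome, from Pcdha2 at 2.81 ± 0.67 to Pcdhac2, the last gene, at 10.6 ± 1.47. Spearman's rho between a gene's place in its cluster and its level was 0.83 over the 14 alpha genes, 0.57 over the 22 beta genes and 0.36 over the 22 gamma genes. These are descriptions across genes that share libraries and one annotation. In the beta cluster the last 7 genes, Pcdhb16 to Pcdhb22, lay between 2.67 and 5.71 CPM per kb, and the 15 before them at 3.06 or less. In the gamma cluster Pcdhgc3 stood above all others at 33.9 ± 1.65 CPM per kb, followed by Pcdhga11 at 19.9 ± 1.07 and Pcdhgb6 at 17.3 ± 1.41. The lowest gamma genes were Pcdhgb8 at 0.44 ± 0.06 and Pcdhga1 at 2.89 ± 0.43. The ranking of members was alike between libraries. Over the 15 pairs of libraries Spearman's rho of the members' levels was 0.873 to 0.996 in the alpha cluster, 0.877 to 0.970 in the beta cluster and 0.960 to 0.988 in the gamma cluster.

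The C-type genes differed widely among themselves. Pcdhgc3, which is expressed in many cell types and is known to act in dendrite growth, held 113, 119 and 117 CPM in control replicates 1, 2 and 3 and 108, 122 and 109 CPM in the mutants. The groups overlapped, and Pcdhgc3 alone made up 13.2% to 15.1% of all gamma reads. Pcdhgc4, the isoform needed for neuronal survival, held 64.1, 67.4 and 57.7 CPM in controls and 58.7, 61.6 and 46.6 CPM in mutants. Its lowest library was mutant replicate 3, and the groups overlapped. Pcdhgc5, which is made late in neuronal maturation, held 19.9, 26.7 and 23.0 CPM in controls and 20.6, 23.5 and 17.5 CPM in mutants. These overlapped too. Pcdhac2, the isoform that spaces out serotonergic axons, held 33.7, 36.5 and 30.1 CPM in controls and 32.1, 36.2 and 24.6 CPM in mutants. Pcdhac1 held 27.3, 25.0 and 17.5 CPM in controls and 22.0, 20.5 and 17.5 CPM in mutants. In both alpha genes replicate 3 was the lowest library of each genotype.

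Between the genotypes, no clustered protocadherin passed the test. In edgeR's quasi-likelihood fit of 19616 genes, 0 members passed a Benjamini-Hochberg adjusted p of 0.05, and 0.00% of all genes did, the lowest value being 0.9999. Before adjustment 0 members had p below 0.05, while 376 of all genes did (1.92%), 0.729% lower and 1.19% higher in mutants. A block for replicate number raised that number to 765 genes and called none. The corresponding number was 261 in DESeq2 and 1909 in limma-voom with sample weights, and each of them called 0 genes after adjustment. Of the 58 members 57 were tested. Pcdhb1, with 3 to 11 counts per library, did not reach the count minimum. The targeted gene Dyrk1a stood at 169, 183 and 180 CPM in controls and 185, 159 and 182 CPM in mutants, with overlapping groups. Its log2 fold change, mutant over control, was -0.02 ± 0.09 (SE). A two-sided exact permutation test gave p = 0.9, where 0.1 is the smallest that 3 against 3 allows. The Dyrk1a count covers the whole gene and cannot check the labels by itself.

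Most members lay slightly lower in mutants. Of the 57 tested members 48 had a log2 fold change below 0, where 52.5% of all tested genes did, and the median was -0.11 against -0.01 over all tested genes. In the alpha cluster 11 of 14 lay below 0 with a median of -0.10, in the beta cluster 16 of 21 with a median of -0.18, and in the gamma cluster 21 of 22 with a median of -0.10. The fold changes spread over -0.28 to 0.03 in the alpha cluster, -0.44 to 0.11 in the beta cluster and -0.24 to 0.05 in the gamma cluster. The 1 gamma gene above 0 was Pcdhgb1 at 0.05 ± 0.11 (SE). Precision differed by cluster, with median standard errors of 0.19, 0.22 and 0.10 log2 units for alpha, beta and gamma. In bulk tissue, fewer cells of a type and less RNA per cell cannot be told apart.

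**Figure D2:**
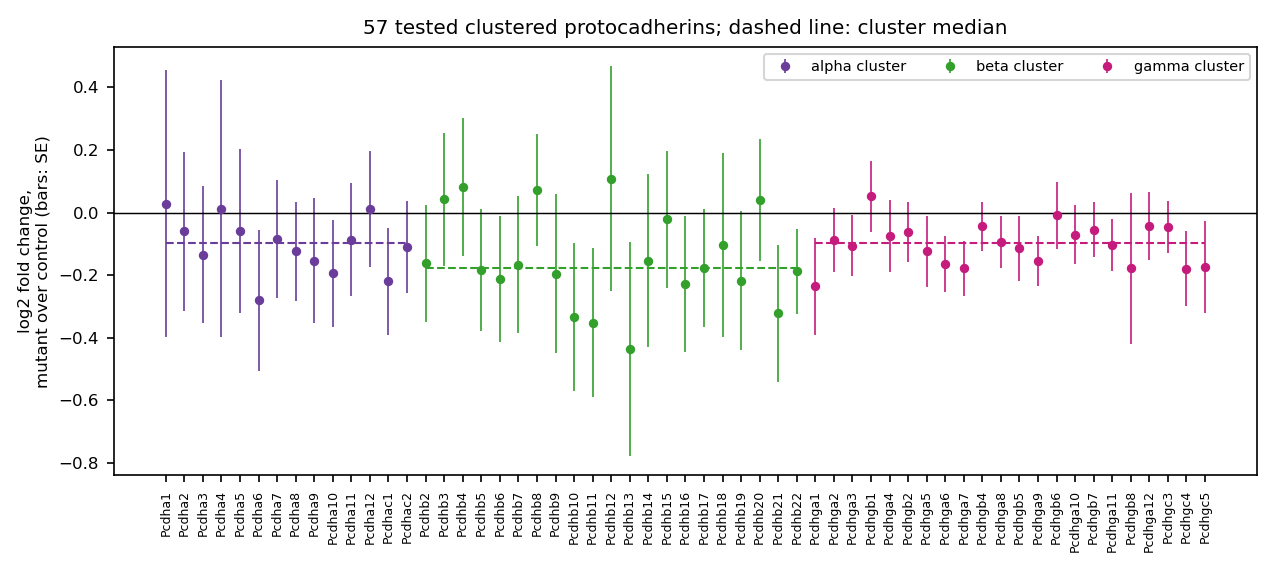
Log2 fold change, mutant over control, of the 57 tested members in chromosomal order, with SE bars from edgeR's fit and a dashed line at each cluster's median. Gamma members form a narrow band near the median of -0.10, while beta members spread from -0.44 to 0.11 with wide bars, and no member passed the test.

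Summed over each cluster and scaled by TMM, the gamma reads did not overlap between the genotypes, and the alpha and beta reads did. The gamma sum was 847, 884 and 824 CPM in the controls (replicates 1, 2 and 3) and 815, 808 and 774 CPM in the mutants. Every mutant library lay below every control library, with means of 852 ± 30.6 and 799 ± 21.9 CPM (SD, n = 3 each), a difference of -6.20%. This separation depended on the TMM factors, 0.9912 for control replicate 3 and 1.0047 for mutant replicate 1. These libraries held 31289 gamma counts of 38315004 and 23206 of 28339650. Scaled by total counts alone, mutant replicate 1 lay above control replicate 3, so the groups overlapped. The alpha sum was 250, 267 and 176 CPM in controls and 235, 227 and 173 CPM in mutants, and the beta sum 254, 266 and 163 CPM in controls and 231, 209 and 170 CPM in mutants. Both sums overlapped between the genotypes, and in both the replicate 3 libraries were the lowest. The differences of the means were -8.42% (alpha) and -10.8% (beta), with control SDs of 48.0 and 56.2 CPM. No p is given for these sums, since the family was chosen with this contrast known.

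**Figure D3:**
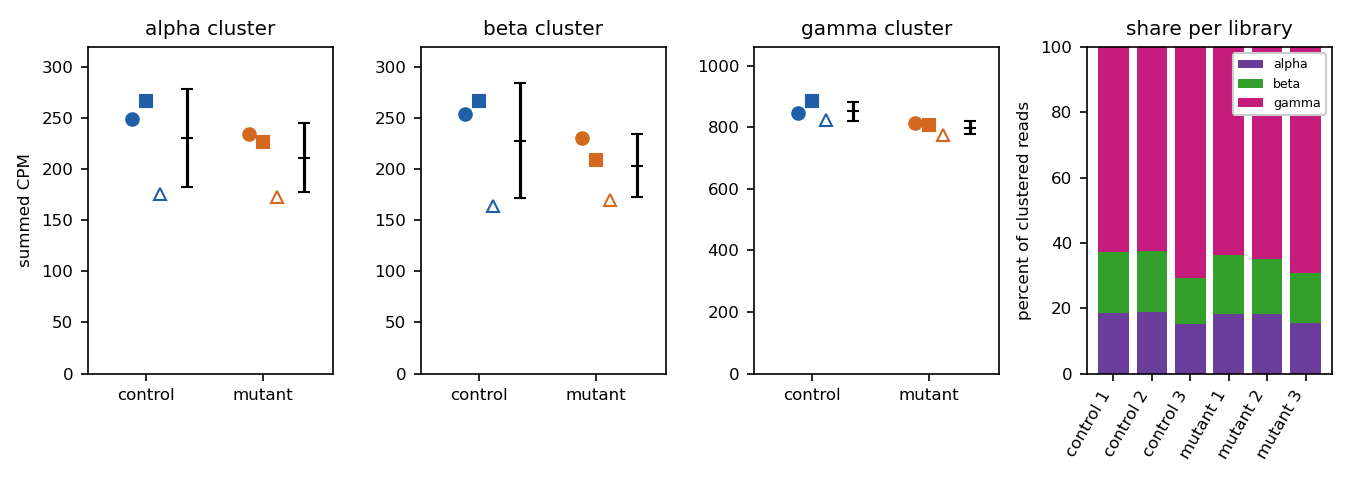
Summed CPM of all members of each cluster per library (left 3 panels, y axes from 0; circles, squares and open triangles are replicates 1, 2 and 3, black bars mean and SD of 3 libraries) and the share of each cluster in all clustered protocadherin reads (right, percent). Replicate 3 lies low in the alpha and beta panels of both genotypes and close to the other libraries in the gamma panel. There all mutants lie below all controls, a separation that depends on the TMM scaling.

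The members with no overlap between the genotypes were all gamma genes. Of the 57 tested, 5 had every mutant library below every control library, where 3.70% of all tested genes did, and 0 had every mutant above every control, where 3.19% did. The genes were Pcdhga6, Pcdhga7, Pcdhga8, Pcdhga9 and Pcdhgb4, all variable exons from the middle of the cluster. Pcdhga7 held 39.4, 40.8 and 36.9 CPM in controls and 36.0, 33.8 and 33.8 CPM in mutants. The groups came closest at control replicate 3 and mutant replicate 1. Its log2 fold change was -0.18 ± 0.09 (SE), with a 95% interval from -0.38 to 0.02, and it had the smallest unadjusted p of the family, 0.0746 (edgeR's quasi-likelihood test, adjusted p = 0.9999). Pcdhga9 held 47.0, 46.4 and 44.3 CPM in controls and 41.8, 41.8 and 40.1 CPM in mutants, a log2 fold change of -0.15 ± 0.08 (SE) with an interval from -0.34 to 0.03. Pcdhga6 held 36.3, 38.2 and 35.5 CPM in controls and 34.5, 31.1 and 32.6 CPM in mutants, at -0.16 ± 0.09 (SE). The remaining pair differed by less: Pcdhga8 was at -0.09 ± 0.08 and Pcdhgb4 at -0.04 ± 0.08 (SE). Pcdhgb4 had mutant libraries between 46.1 and 47.0 CPM and control libraries between 47.6 and 49.1 CPM, and the smallest coefficient of variation of any member.

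The most read genes of the other clusters showed overlap in every case. Pcdhb19 held 33.8, 36.2 and 19.3 CPM in controls and 29.8, 23.7 and 23.2 CPM in mutants, and Pcdhb17 held 32.3, 32.0 and 20.4 CPM in controls and 28.8, 24.8 and 21.2 CPM in mutants. In both, control replicate 3 was below all 3 mutants. Pcdhb22 held 28.3, 30.7 and 22.1 CPM in controls and 24.2, 25.2 and 21.8 CPM in mutants. Pcdha11 held 35.6, 38.4 and 23.9 CPM in controls and 35.5, 29.7 and 26.9 CPM in mutants. Pcdha9 held 28.1, 27.9 and 18.3 CPM in controls and 24.7, 24.8 and 17.1 CPM in mutants. Among the most read gamma genes, Pcdhgb5 held 61.4, 58.6 and 57.6 CPM in controls and 61.4, 48.1 and 54.5 CPM in mutants, with mutant replicate 1 as high as the highest control.

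The smallest unadjusted p-values in the beta cluster belonged to Pcdhb11 and Pcdhb21, both 0.177 by edgeR's quasi-likelihood test (adjusted p = 0.9999 for each). Pcdhb11 had a log2 fold change of -0.35 ± 0.24 (SE), with an interval from -0.89 to 0.19. Pcdhb21 had -0.32 ± 0.22 (SE), from -0.82 to 0.18. In the alpha cluster they belonged to Pcdhac1 at -0.22 ± 0.17 and Pcdha6 at -0.28 ± 0.23 (SE). The lower ends of the intervals of these 4 genes lay between -0.89 and -0.61. For Pcdhgc3, the most read member, the interval ran only from -0.24 to 0.15.

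The alpha and beta clusters varied with replicate number, and the gamma cluster varied less. In both genotypes the replicate 3 library stood apart. In log2 CPM relative to the mean of replicates 1 and 2, control replicate 3 had a median of -0.62 over the 14 alpha genes, -0.64 over the 21 tested beta genes and -0.07 over the 22 gamma genes. Mutant replicate 3 had medians of -0.44, -0.43 and -0.04. The gamma sum was also lowest in replicate 3 of each genotype, at -4.82% (controls) and -4.6% (mutants) relative to replicates 1 and 2. Its difference between the genotypes was -6.20%. All 14 alpha and 21 beta genes lay below 0 in control replicate 3, where 49.4% of all tested genes did, and 17 of 22 gamma genes did. In mutant replicate 3 the counts were 13, 21 and 14, where 49.1% of all tested genes lay below 0. The exception in the alpha cluster was Pcdha4, at 0.40 in mutant replicate 3 and -1.23 in control replicate 3, on 27 to 73 counts per library. The gamma share of all clustered protocadherin reads was 70.8% and 69.3% in the replicate 3 libraries of controls and mutants and 62.4% to 64.9% in the other 4.

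**Figure D4:**
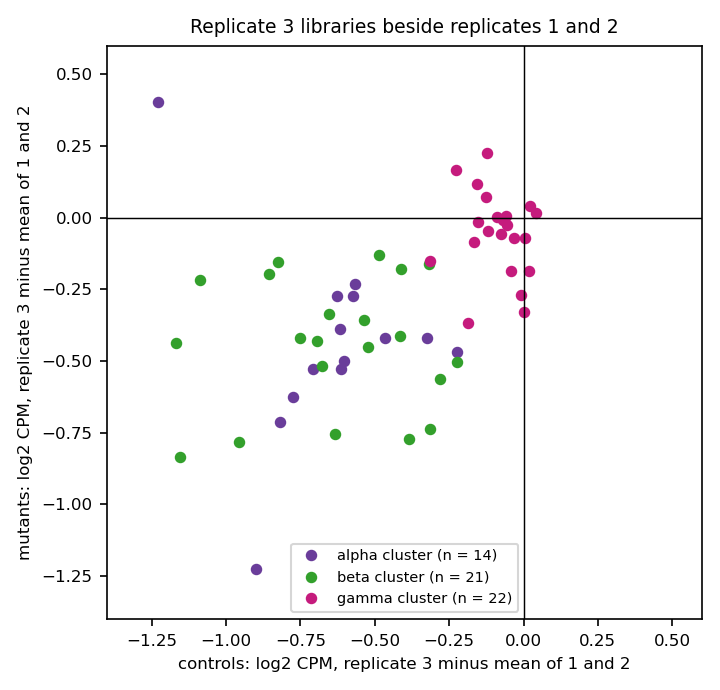
Difference in log2 CPM between the replicate 3 library and the mean of replicates 1 and 2, in controls (x axis) and mutants (y axis), for each tested member. Gamma genes lie around the origin and alpha and beta genes in the lower left, apart from Pcdha4 at the upper left.

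The same contrast appeared in the spread of single genes. The coefficient of variation over the 6 libraries had a median of 19.2% in the alpha cluster, 21.5% in the beta cluster and 7.24% in the gamma cluster, against 12.9% over all tested genes. Counting error alone gives medians of 4.82%, 7.48% and 3.04%. The least variable gamma gene, Pcdhgb4, had 2.11%, below the 2.67% that counting alone gives on average. Among the C-type genes, Pcdhac1 had 18.3%, Pcdhac2 13.8%, Pcdhgc4 12.1%, Pcdhgc5 14.7% and Pcdhgc3 4.86%. The median GC content of the longest transcript was 47.3% for alpha, 46.0% for beta and 53.0% for gamma genes.

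Some lists of cell type markers moved with replicate number as well, and others did not. The 12 neuron markers summed to 5390 CPM (control) and 5450 CPM (mutant) in the replicate 3 libraries, and to 6050 to 6420 CPM in the other 4 libraries. The 10 proliferating cell markers summed to 1770 and 1860 CPM in replicate 3 and to 1010 to 1090 CPM in the others. The 8 radial glia markers summed to 1380 and 1420 CPM in replicate 3 against 1060 to 1250 CPM. Among them Slc1a3 went the other way, at 131 and 129 CPM in replicate 3 and 144.5 to 150.2 CPM elsewhere. No marker of these lists was at 0, and each was tested. Between the genotypes the medians were -0.02 for the neuron list (6 of 12 below 0), 0.05 for the proliferating cell list (0 of 10 below 0) and 0.14 for the radial glia list (2 of 8 below 0). Of all tested genes 52.5% lay below 0. Forebrain markers were present in all libraries, from Six3 at 4.37 to 6.52 CPM, the least read, to Lhx2 at 79.1 to 134 CPM, the most read. Red cell markers summed to 604 and 657 CPM in replicate 3 and 422 to 485 CPM elsewhere, a sum carried by the embryonic globin gene Hbb-y, at 320 and 322 CPM in replicate 3 and 27.8 to 42.5 CPM elsewhere. The globin gene Hbb-bs went the other way, at 209 and 255 CPM in replicate 3 and 304 to 354 CPM elsewhere, and Hba-a1 and Alas2 were also lowest in replicate 3 of each genotype. The 8 GABAergic neuron markers all lay above 0 in mutants, where 47.5% of all tested genes did, with a median of 0.05. That median was 0.12 with replicates 1 and 2 only and -0.01 between the replicate 3 libraries. Their sums were 371, 451 and 427 CPM in control replicates 1, 2 and 3 and 435, 427 and 427 CPM in mutants. Replicate 3 did not stand apart in these sums. The part of these markers in the protocadherin values was not tested.

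Split by replicate number, without pairing, the picture differed by cluster. With only the 4 libraries of replicates 1 and 2, 13 of 14 alpha, 17 of 21 beta and 20 of 22 gamma genes lay below 0 in mutants, with medians of -0.15, -0.23 and -0.11, where 49.9% of all genes did. Between the replicate 3 libraries, mutant against control, 8 of 14, 11 of 21 and 16 of 22 lay below 0, where 52.1% of all genes did. The medians there were -0.03, -0.02 and -0.10. The gamma median was thus about the same in both subsets, and 31 of the 57 members lay below 0 in both. Over all 15 alternative settings, 25 of the 57 lay below 0 in each one, 3 alpha, 8 beta and 14 gamma genes. For these counts of 31 and 25 the share over all tested genes is not given here. The settings reuse the same libraries, so the counts are descriptions only. Leaving out 1 library at a time moved the gamma median only between -0.11 and -0.08, the beta median between -0.36 and -0.08 and the alpha median between -0.28 and 0.04. The number of alpha genes below 0 was 4 without mutant replicate 3, 6 without control replicate 2 and 14 without control replicate 3. With the trend of each library with GC content and transcript length removed, the medians were -0.07, -0.13 and -0.09 for alpha, beta and gamma.

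**Figure D5:**
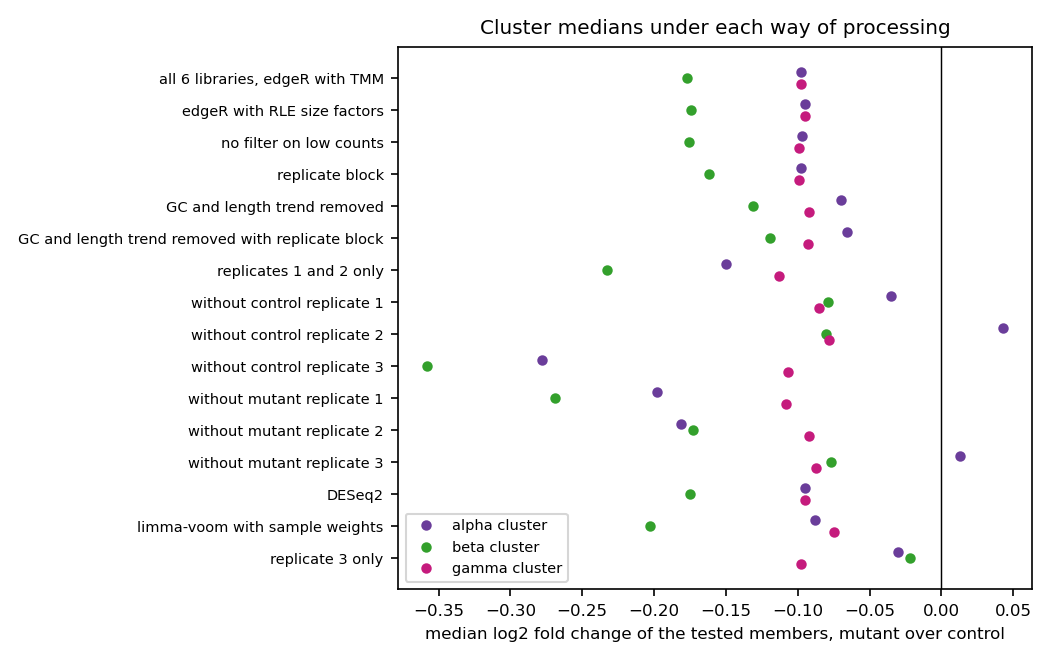
Median log2 fold change, mutant over control, of the tested members of each cluster (x axis) under each way of processing (y axis). The gamma medians lie between -0.11 and -0.08 (log2) in every row, the beta medians between -0.36 and -0.02, and the alpha medians between -0.28 and 0.04.

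No gene known to act on the clusters passed the test. Of the 11 looping factors, Ctcf and the genes of cohesin and its loading and release, 9 lay below 0, with a median of -0.04 that became 0.03 with GC and length trends removed. Ctcf held 115, 118 and 130 CPM in controls and 117, 117 and 128 CPM in mutants. In both genotypes replicate 3 was the highest, and the log2 fold change was -0.003 ± 0.09 (SE), with a sign that turned with the scaling. The smallest p-values of the list belonged to the cohesin subunit genes Rad21 at -0.09 ± 0.09 and Stag1 at -0.08 ± 0.11 (SE). Of the 13 silencing factors 9 lay below 0, with a median of -0.04, or 0.04 without control replicate 3. Tet3, which encodes an enzyme that oxidises methylated cytosine, held 387, 412.5 and 413 CPM in controls and 368, 378 and 378 CPM in mutants. All mutants lay below all controls, at -0.11 ± 0.08 (SE). Dnmt3b, a methyltransferase known for methylating these promoters, was at -0.04 ± 0.17 (SE).

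Partners and effectors of the proteins gave no call either. Of the 19 genes, among them the kinase genes Ptk2, Ptk2b and Ret, the WAVE complex that binds the tails of many clustered protocadherins, and the proteases that cleave them, 0 passed and 15 lay below 0, with a median of -0.05. The smallest p belonged to Ncstn, a subunit gene of the gamma-secretase that cuts the membrane stubs. Ncstn held 64.4, 63.9 and 66.4 CPM in controls and 59.6, 61.7 and 60.7 CPM in mutants, without overlap, at -0.10 ± 0.08 (SE). Adam10, the protease that sheds the outer part, was at -0.12 ± 0.12.

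Protocadherins outside the clusters and the genes around them gave a comparison. All 12 non-clustered protocadherins were tested, 0 passed and 9 lay below 0, with a median of -0.03 that became 0.03 with GC and length trends removed. Pcdh8, an activity-regulated protocadherin, had the smallest p and lay higher, at 37.9, 60.1 and 38.6 CPM in controls and 66.6, 62.2 and 43.9 CPM in mutants, or 0.34 ± 0.21 (SE). Its groups overlapped. Pcdh11x was at -0.14 ± 0.19 (SE). In replicate 3 the list had medians of -0.35 in controls and -0.30 in mutants relative to replicates 1 and 2, between the values of the gamma and alpha clusters. Of 29 protein-coding neighbours within 500 kb of the clusters or between them, 26 were tested, 0 passed, 7 lay below 0 and 19 above, with a median of 0.06 (-0.03 between the replicate 3 libraries). Pcdh1 and Pcdh12 belong to both lists. The neighbours with the smallest p were Gnpda1 at -0.20 ± 0.12 and Ndufa2 at 0.21 ± 0.14 (SE). In replicate 3 the neighbours stood at 0.07 in controls and -0.01 in mutants. The lists were written with earlier results of these data known, and their medians are descriptions.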

How the data were processed

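The authors deposited unnormalized counts of reads for each gene, in 1 column per library. Per the labels' protocols, libraries came from ribosome-depleted RNA with strand marking and single-end reads, although the molecule is labelled polyA RNA. Per the submitters' processing notes, the tools were bcl2fastq 2.17.1.14, HISAT2, SAMtools 1.9 and HTSeq 0.9.1, and the series' design text names GRCm38 release 93. For the HISAT2 version and HTSeq's mode and strand option the sources used here give nothing. The libraries held 24646616 to 38315004 counts.

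Symbols, positions, GC content and exon lengths came from GENCODE M21 on GRCm38, a later release than the one used for counting. It matched 32888 of 33084 identifiers. Counts were analysed in R 4.3.3 with edgeR 4.0.16 (filterByExpr with a count minimum of 10 and total minimum of 15, TMM, robust quasi-likelihood F test, no covariate), and alternatives with DESeq2 1.42.0 and limma 3.58.1. The edgeR script was tested on simulated data. Log2 CPM used a prior count of 2. Members and lists were chosen with earlier results of these data known. Named members are the 3 most read and the 2 of smallest p in each cluster, the C-type genes and those without overlap between genotypes. For other lists they are the 2 genes of smallest p, with Ctcf; some genes that this rule names are not reported here. Dnmt3b, Adam10, Ptk2, Cyfip1, Slc1a3, Six3, Lhx2 and the members printed for their level were added after their values were seen.

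Over 14977 genes the deviations from the group means correlated between libraries of equal replicate number at 0.386, 0.124 and 0.513 for replicates 1, 2 and 3. Only for replicate 3 was the library of equal number the closest in both directions. By the rule that every such value exceed 0.1, the numbers were taken as pairs in the alternative fits with a replicate block. The main fit had no block. Control replicate 2 and mutant replicate 1 correlated at 0.584, above every pair of equal number, and the labels do not say what a number marks.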

Additional observations from a re-analysis of the deposited data

How the results depend on the processing

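No member passed the test under any of the 14 alternatives that give one, and 48 members below 0 became 35 to 55. The replicate block changed no call of a gene or member; it left 49 members below 0 and raised the genes at an unadjusted p under 0.05 from 376 to 765, or to 1019 with GC and length trends removed. That count was 587 without a filter, 1544 with replicates 1 and 2 only, 1909 in limma-voom with sample weights and 179 (without control replicate 1) to 1060 (without control replicate 3) leaving out 1 library. With replicates 1 and 2 only, 3 genes were called, no member among them. Over all exon bases the median level was 2.77 (alpha) and 7.19 (gamma) CPM per kb; an added alternative that leaves out exons of either strand moved no cluster beyond the spread between libraries. The share of gamma reads, mutant minus control, was 0.66 percentage points and -1.01 to 3.42 leaving out 1 library. Some log2 fold changes turned sign, those of 5 of the 19 named members among them. Pcdhb19 was at 0.261, Pcdhb17 at 0.052 and Pcdha11 at 0.166 in replicate 3 only. Leaving out 1 library, Pcdha11 ran from -0.260 to 0.046, Pcdha9 from -0.326 to 0.006 and Pcdhac2 from -0.237 to 0.033, with Pcdha9 and Pcdhac2 above 0 only without mutant replicate 3, and Pcdha11 without that library or control replicate 2. The other 14 stayed below 0 in the 15 alternatives. Ctcf was at 0.001 (RLE), 0.018 and 0.020 (GC and length trends removed, without and with the block), 0.012 (replicates 1 and 2), 0.019 (limma-voom) and -0.046 to 0.062 leaving out 1 library. Dyrk1a was at 0.016 and 0.015 (trends removed, without and with the block), 0.047 (limma-voom), 0.013 (replicate 3 only) and -0.053 to 0.052 leaving out 1 library. Pcdh11x was at 0.046 and 0.037 with those trends removed and 0.163 in replicate 3. Rad21 was at 0.027 and Stag1 at 0.098 in replicate 3, and Stag1 at -0.178 to 0.012 leaving out 1 library. The cause was not tested. Depth limits Pcdhb1, Pcdha1, Pcdha4 and Pcdhgb8, which held few reads of their own.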

Other observations

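Other genes of the count table inside the 3 clusters were looked at after the data were seen. All 6 same-strand genes were tested, 0 passed edgeR's test, 5 lay below 0 in mutants and the median log2 fold change was -0.21. That median was -0.36 with replicates 1 and 2 only and 0.17 between the replicate 3 libraries. Among them Gm18150, an unprocessed pseudogene between the starts of Pcdha11 and Pcdha12, held 6.98, 7.17 and 5.08 CPM in controls and 5.62, 4.92 and 3.32 CPM in mutants, at -0.47 ± 0.23 (SE), with groups that overlapped. Gm36858, between the starts of Pcdha7 and Pcdha8, held 17.0, 16.9 and 10.8 CPM in controls and 14.9, 13.1 and 10.3 CPM in mutants. In both genotypes its replicate 3 library was the lowest, as for the alpha genes beside it. The 6 genes had medians of -0.60 (control) and -0.27 (mutant) in replicate 3 relative to replicates 1 and 2.

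Antisense transcription through alpha variable exons is known to accompany promoter choice. Of the 12 genes on the opposite strand inside the clusters, 4 were tested, 0 passed, 3 lay above 0 and the median was 0.03, or -0.09 with replicates 1 and 2 only. The most read was Gm26672, whose span covers the start of Pcdhga10, at 10.5, 9.96 and 8.24 CPM in controls and 11.3, 8.14 and 9.51 CPM in mutants. Gm10545, whose span covers the start of Pcdha11, held 0.32 to 1.09 CPM and Gm37118 was at 0 in every library.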
